A study of Arabidopsis thaliana with 66 samples.

Results

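The genes described here were strong in whole Arabidopsis thaliana flowers at floral stage 9 and weak in every later whole-flower sample of the wild-type series. A probe set, the group of short oligonucleotides that reports 1 transcript on the ATH1 array, was taken as a member when its mean linear signal over 3 arrays was at least 100 in stage 9 flowers and was at most 0.5 of that value in flowers of stage 10/11, stage 12 and stage 15. AMS and ROXY2 were to be left out of the set. Only AMS met the values, since ROXY2 had a stage 9 mean of 46.08. This left 72 members of 22746 probe sets other than controls, and 7219 of those probe sets had a stage 9 mean of at least 100. The annotation paired 37 members with 1 gene, 1 member with several genes and 34 members with none, and a member without a single gene is called by its probe set. Since the members were chosen by these whole-flower signals, the drop across the 4 stages is given below as a description and was not tested.

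The series holds 66 arrays in 22 groups of 3. The wild-type groups were whole Col-0 flowers of stages 9, 10/11, 12 and 15, sepals, petals, stamens and carpels dissected at stages 12 and 15, stage 15 pedicels, and mature pollen. These plants grew on soil in continuous light at 23 °C, with a relative humidity of 65% where one is given, and a further wild-type group held flowers of unstated stage from plants in long days at 20 °C. The 7 mutant groups were whole flowers of a size like that of wild-type stage 12, from the same light and temperature: clv3-7, with added organs; lfy-12, whose flowers are partly leaf-like; ap1-15, without sepals and with secondary flowers in place of petals; ap2-6, without sepals and petals and with carpel-like structures; ap3-6, without petals and stamens; ag-12, without stamens and carpels and with indeterminate growth; and ufo-1, with thread-like organs where petals and stamens would stand. No organ was dissected at stage 9 or stage 10/11, so the organ that held a member's transcript at stage 9 was not measured.

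Inside the young anther, the tapetum is a layer of cells that surrounds the developing pollen, supplies it with nutrients, secretes wall material and lipid transfer proteins on to it, and then dies. In Arabidopsis, AMS and the related bHLH89 are transcription factors that act in this layer, and UND (UNDEAD) is an aspartic protease linked to the timing of its death. Genes of the tapetum are switched on in young buds and off again well before the flower opens, while genes of carpel, petal or pollen development follow other courses.

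Signals had been scaled by the submitters to a common trimmed mean, which lay between 100.01 and 100.02 on all arrays, and no pair of arrays held identical values. A signal of 22.61, the 40th percentile of all values, was used as the floor below which a probe set is called dim. A member is called below the floor in a group only where all 3 arrays were. In each comparison the test was limma on log2(signal + 11.3) over 17648 probe sets, and "called" means an adjusted p under 0.05 with a change of at least 2-fold on that scale. All 72 members were among those tested, each through the stage 9 group that chose it. Nothing in the labels says that arrays of a group came from separate plants, so p-values measure only the spread between these arrays. In whole flowers, fewer cells of a type and less RNA per cell cannot be told apart. The stage 9 and stage 10/11 arrays carry one series of array letters and the arrays of all other groups another. Letter series therefore cannot be told apart from stage, organ, genotype or growth where another group is set against stage 9 or stage 10/11. Of the mutated genes, UFO and CLV3 had a probe set that the annotation names, and both were below the floor in all groups, so neither checks the genotype labels.

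AT5G62080, which encodes a protein of the lipid transfer family, had the highest stage 9 mean of the 72 members. Its signal was 1909, 1774 and 1687 on the stage 9 arrays, 413, 348 and 389 at stage 10/11, 25.8, 18.4 and 24.4 at stage 12, and 4.18, 9.44 and 4.15 at stage 15. The groups stood apart at each step of this descent. AT4G20420, of the family named for tapetum-specific proteins, gave 1686, 1578 and 1653 at stage 9, 224, 264 and 232 at stage 10/11, and 23.7, 11.6 and 14.5 at stage 12. Its stage 15 arrays, at 14.7, 15.8 and 13.9, lay within the range of the stage 12 arrays. AT3G52130, another lipid transfer family gene, gave 1489, 1548 and 1515 at stage 9 and already only 131, 86.9 and 117 at stage 10/11, before signals between 1.99 and 2.45 at stage 12. AT3G07450, of the same family, gave 1349, 1270 and 1191 at stage 9, 156, 126 and 139 at stage 10/11, and no more than 9.18 at stage 12. The lipid transfer family genes AT5G52160 and AT5G55450 are also members, and they fall at opposite ends of the range of later behaviour described below.

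The remaining strong members included AT1G44970, a class III peroxidase, whose 1870, 1650 and 1655 at stage 9 gave way to 158, 175 and 150 at stage 10/11. Unlike the genes above it did not keep descending: its signal was 363, 326 and 376 at stage 12 and 553, 631 and 615 at stage 15. Probe set 245622_at, with no gene in the annotation, had the lowest stage 12 share of the 72, with a mean of 1675 at stage 9, 436 at stage 10/11 and 0.40 at stage 12. The other unnamed probe sets among the 12 highest, 253195_at, 264175_at, 261096_at, 253222_at, 260260_at and 259987_at, had stage 9 means between 969 and 1296. UND was a weaker member, at 260, 248 and 250 at stage 9, 26.4, 34.1 and 36.2 at stage 10/11, and no more than 8.48 at stage 12. AT1G06170, the gene of bHLH89, gave 159, 165 and 165 at stage 9, 65.7, 76.2 and 79.5 at stage 10/11, and 19.6, 19.0 and 19.3 at stage 12, so its stage 12 arrays were under the floor.

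**Figure D1:**
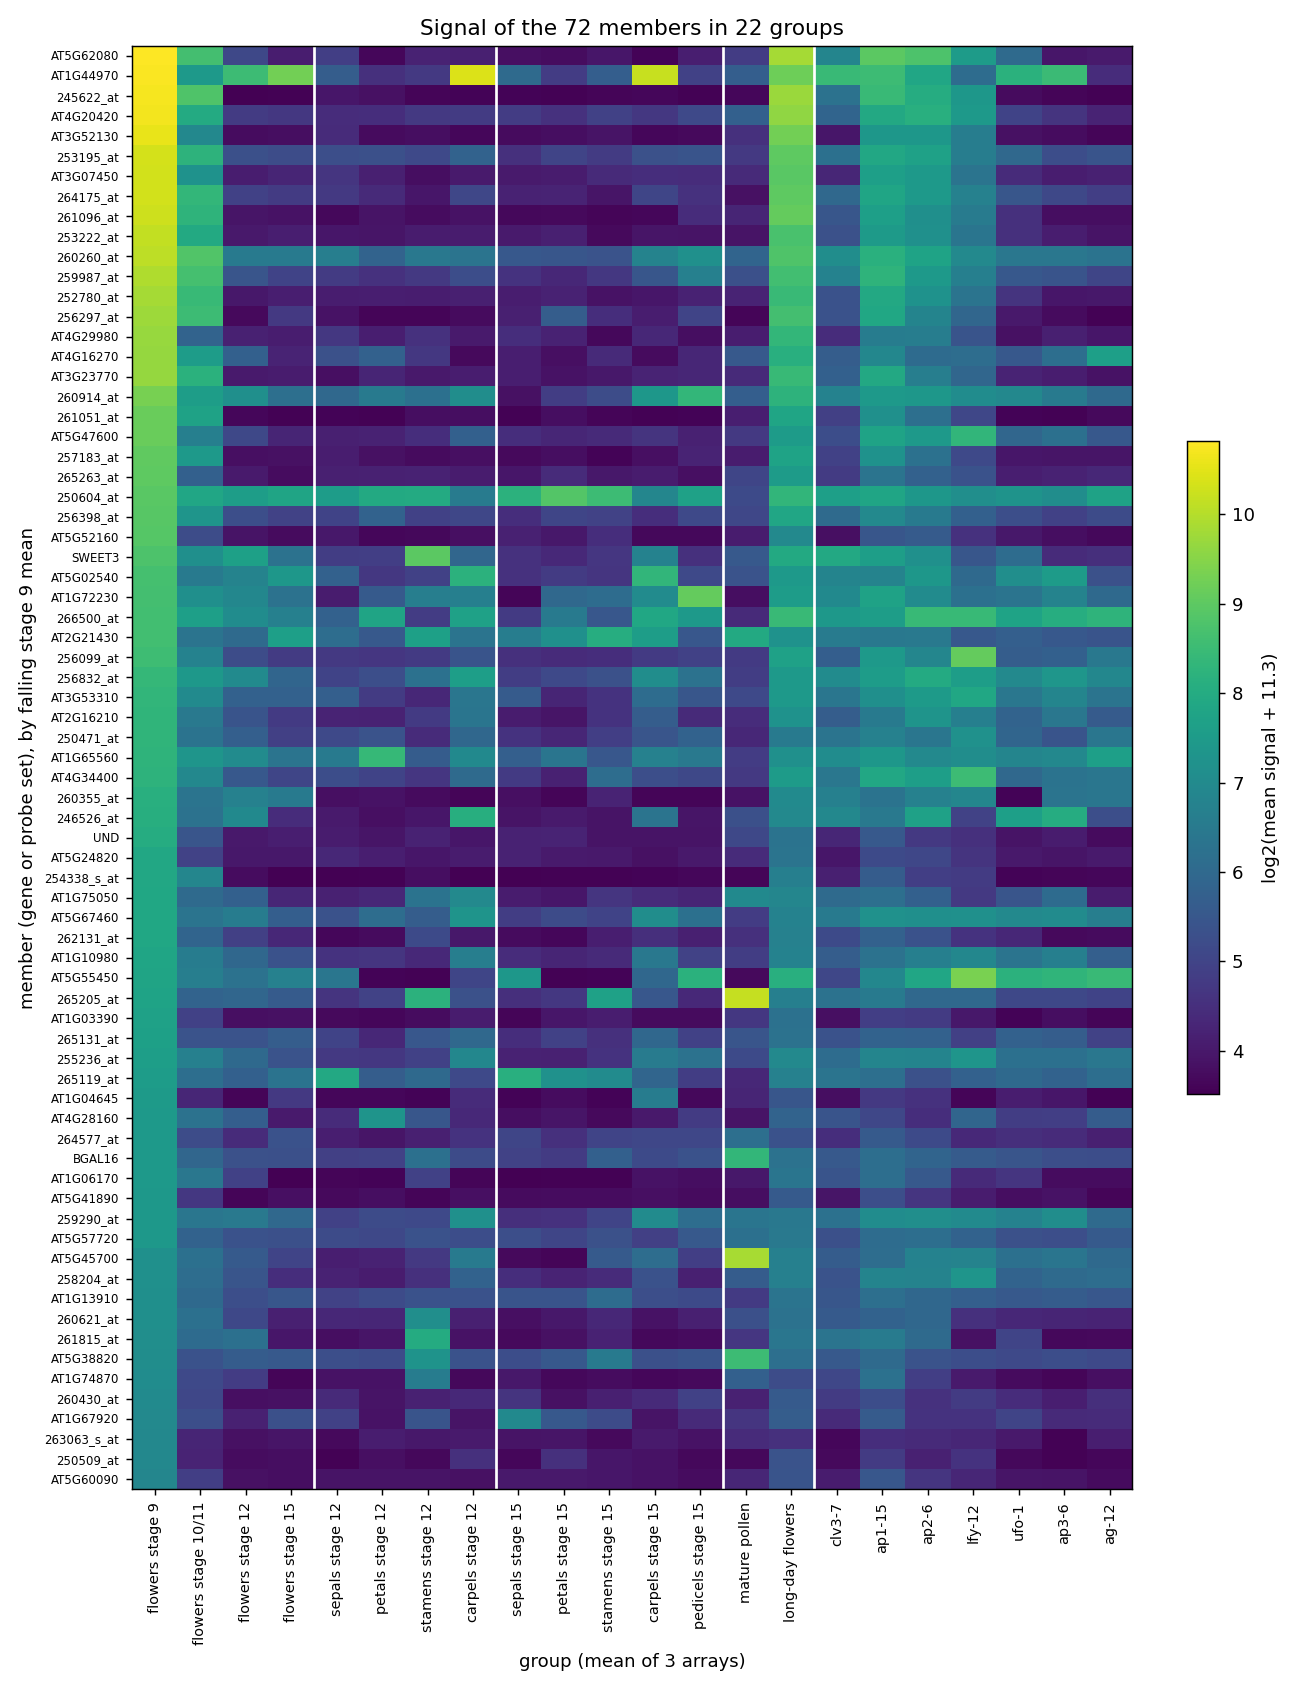
Each row is a member, ordered by falling stage 9 mean, each column is a group of 3 arrays, and colour gives log2 of the mean signal plus 11.3; white lines separate whole flowers, organs of stage 12, organs and pedicels of stage 15, pollen with long-day flowers, and mutants. The bright first column is set by how the members were chosen, while the ap1-15, ap2-6 and lfy-12 columns are brighter than ap3-6 and ag-12 for most of the upper rows, and single bright cells mark members held in 1 organ or in pollen.

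Over all 72 members, the median level relative to the member's own stage 9 mean was 25.8% at stage 10/11, 9.35% at stage 12 and 4.13% at stage 15. The number above the floor on all arrays was 72 at stage 9, 62 at stage 10/11, 37 at stage 12 and 26 at stage 15. At the edge of the rule, the largest later share of the stage 9 mean was 0.498 for 256832_at, 0.498 for 255236_at and 0.497 for AT1G65560 just inside it, and 0.506 for AT3G12870, 0.518 for SDT and 0.520 for a probe set without a single gene just outside. At the edge of the level, AT5G60090, 250509_at and 263063_s_at were inside with stage 9 means of 106, 111 and 111, and AT4G33870, REM22 and AT4G35070 were outside with 99.6, 98.8 and 98.5. Membership near these edges therefore rests on small differences in signal.

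**Figure D2:**
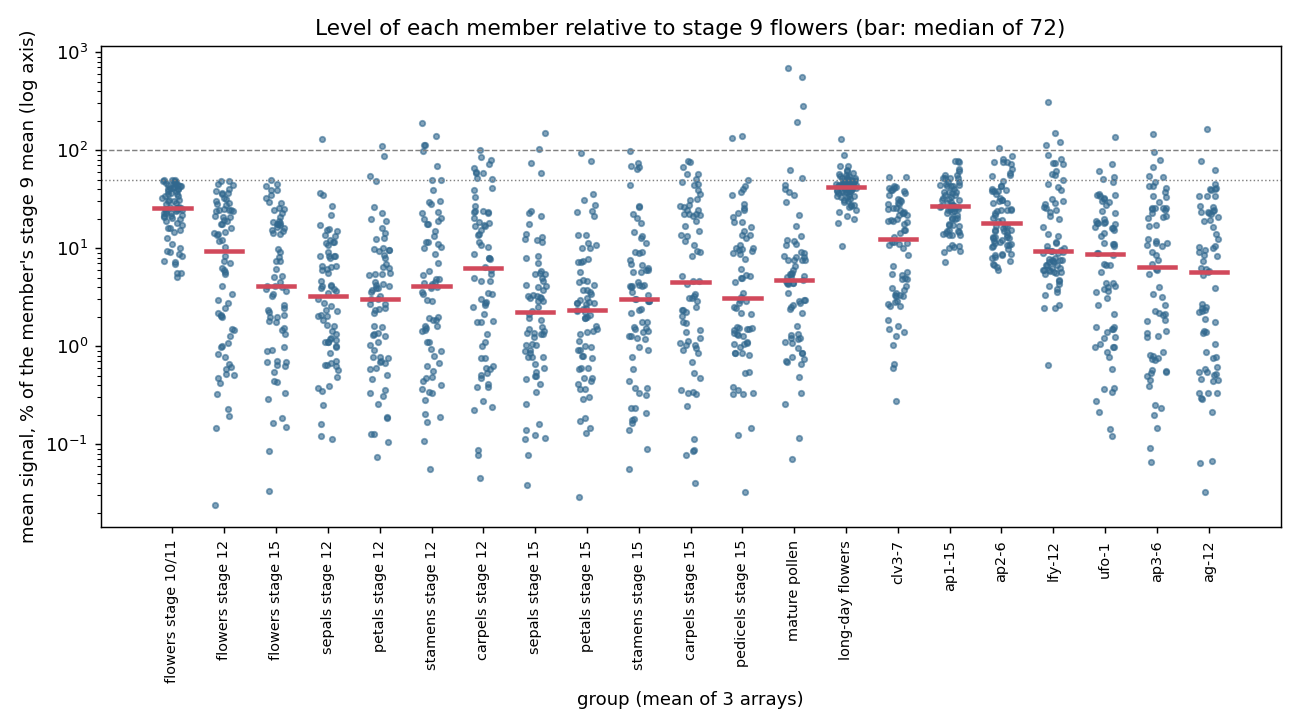
Points give each member's mean signal in a group as a percent of its own stage 9 mean, on a log axis, with a red bar at the median of the 72 members and lines at equality and at the rule's share. The medians run from 25.8% at stage 10/11 down to 4.13% at stage 15 in whole flowers, and single members lie above equality in organs, pollen and lfy-12 flowers.

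A group of 20 members was below the floor on every array of all 9 organ groups and of mature pollen. The share of all probe sets below it there was not counted. The 10 of them with 1 gene were AT5G62080, AT3G07450, AT4G29980, AT3G23770, AT5G52160, AT5G24820, AT1G03390, AT1G06170, AT5G41890 and AT5G60090. From general knowledge of these families rather than from the annotation, AT3G23770 encodes a glycosyl hydrolase of the family that includes callase, AT5G24820 an aspartyl protease, AT1G03390 an acyltransferase, AT5G41890 a GDSL lipase and AT5G60090 a protein kinase. Their stage 9 means ran from 106 to 1790 with a median of 486, and at stage 10/11 the median was 89.8, with 14 of the 20 still above the floor. At stage 12 the median mean was 3.75 and a single one, probe set 260355_at, was above the floor.

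That probe set had a course of its own. Its signal was 274, 263 and 268 at stage 9, 82.2, 61.6 and 65.2 at stage 10/11, 99.0, 101 and 85.7 at stage 12, and 86.1, 78.9 and 74.6 at stage 15. In the organs dissected from stage 12 flowers it was between 0.81 and 6.53, and in those of stage 15 and the pedicels between 0.55 and 12.3. Whole stage 12 flowers thus had a mean of 95.2, with no dissected organ above the floor. The annotation gives this probe set no gene.

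The other members were split between organs. In all, 44 members were above the floor on all arrays of at least 1 organ group, and carpels were the most frequent place of the highest level, at stage 12 for 15 members and at stage 15 for 3. Neither count was made over all probe sets, so neither sets the members apart. To be called enriched in an organ, a member had to be called higher than in each other organ of that stage. By that measure 12 members (16.7%) were enriched in stage 12 carpels, against 5.07% of all probe sets tested. Stamens had 10 members (13.9%) against 9.58%, which is near the background, and sepals and petals had 2 each (2.78%) against 6.79% and 1.67%. At stage 15, 15 members (20.8%) were enriched in carpels against 14.5%, and sepals had 2 against 5.21%. Stamens had 2 against 4.89%, pedicels 2 against 2.5% and petals 1 against 1.29%.

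Among carpel members, the peroxidase gene AT1G44970 stood highest. Its signal in stage 12 carpels was 1358, 1359 and 1385, and in stage 12 sepals, the next organ, it was 40.1, 34.1 and 45.9. At stage 15 the carpel arrays gave 1154, 1112 and 1243 against 57.8, 54.8 and 49.3 in sepals. The carpel arrays lay far above all others in both stages, by a log2 difference of 4.75 ± 0.12 (SE, n = 3 arrays per group; limma adjusted p = 6.86e-39) at stage 12 and of 4.18 ± 0.12 (adjusted p = 1.37e-36) at stage 15. AT5G02540, of a dehydrogenase and reductase family, gave 281, 281 and 289 in stage 12 carpels and 305, 324 and 294 in stage 15 carpels. Its next organ at stage 12, sepals, gave 45.5, 38.0 and 49.4, a log2 difference of 2.41 ± 0.11 (limma adjusted p = 2.07e-28). Probe set 246526_at gave 257, 240 and 289 in stage 12 carpels, about the level of whole stage 9 flowers, and no more than 7.48 in the other stage 12 organs. AT5G67460, of the same glycosyl hydrolase family as AT3G23770, gave 129, 151 and 160 in stage 12 carpels and 60.5, 59.0 and 57.8 in petals. The 2 members of this enzyme family thus differed, since AT3G23770 was below the floor in all organs.

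The stamen members included SWEET3, of the sugar exporter family. Its stage 12 stamen arrays gave 494, 476 and 505, above the 426, 433 and 433 of whole stage 9 flowers, while stage 12 carpels gave 49.3, 46.6 and 54.6. That is a log2 difference of 3.04 ± 0.14 over carpels (limma adjusted p = 3.96e-27). SWEET3 was also enriched in stage 15 carpels, where its mean was 97.1, against 14.2 in stage 15 stamens, which were below the floor. Probe set 261815_at had means of 245 in stage 12 stamens and 3.93 in petals, and 265205_at had 283 in stamens and 28.5 in carpels. AT5G38820, an amino acid transporter family gene, gave 142, 139 and 147 in stage 12 stamens, above its 128, 126 and 124 in stage 9 flowers. AT2G21430, a papain-type cysteine protease gene, gave 187, 192 and 190 in stage 12 stamens against 71.6, 63.6 and 70.1 in carpels. BGAL16, a beta-galactosidase gene, had a mean of 63.2 in stage 12 stamens and 25.0 in carpels, and AT1G74870, of the RING protein family, had 83.8 in stamens and 3.35 in sepals. The anther regulator gene AT1G06170 was enriched by the test too, although its stamen mean of 19.0 lay below the floor.

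Petals, sepals and pedicels each held a few. AT1G65560, of a dehydrogenase family, gave 311, 344 and 336 in stage 12 petals and 110, 115 and 122 in stage 12 carpels (log2 difference 1.43 ± 0.12, limma adjusted p = 3.49e-15). AT4G28160, of the hydroxyproline-rich glycoprotein family, gave 149, 149 and 136 in stage 12 petals and 31.6, 27.7 and 41.0 in stamens. These petal means were 111.3% and 86.9% of the genes' own stage 9 means. Probe set 265119_at gave 253, 213 and 225 in stage 12 sepals, or 130.7% of its stage 9 mean, and stamens came next at 53.2, 53.8 and 54.3. The lipid transfer family gene AT5G55450 gave 70.9, 80.9 and 66.7 in stage 12 sepals and no more than 1.27 in petals and stamens. Carpels came next to sepals for this gene, with a mean of 21.55 at stage 12. AT1G72230, of the cupredoxin family of copper proteins, gave 555, 507 and 527 in stage 15 pedicels, above its 372, 385 and 395 in stage 9 flowers, with carpels next at 115, 121 and 122 (log2 difference 2.05 ± 0.09, limma adjusted p = 5.31e-28).

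**Figure D3:**
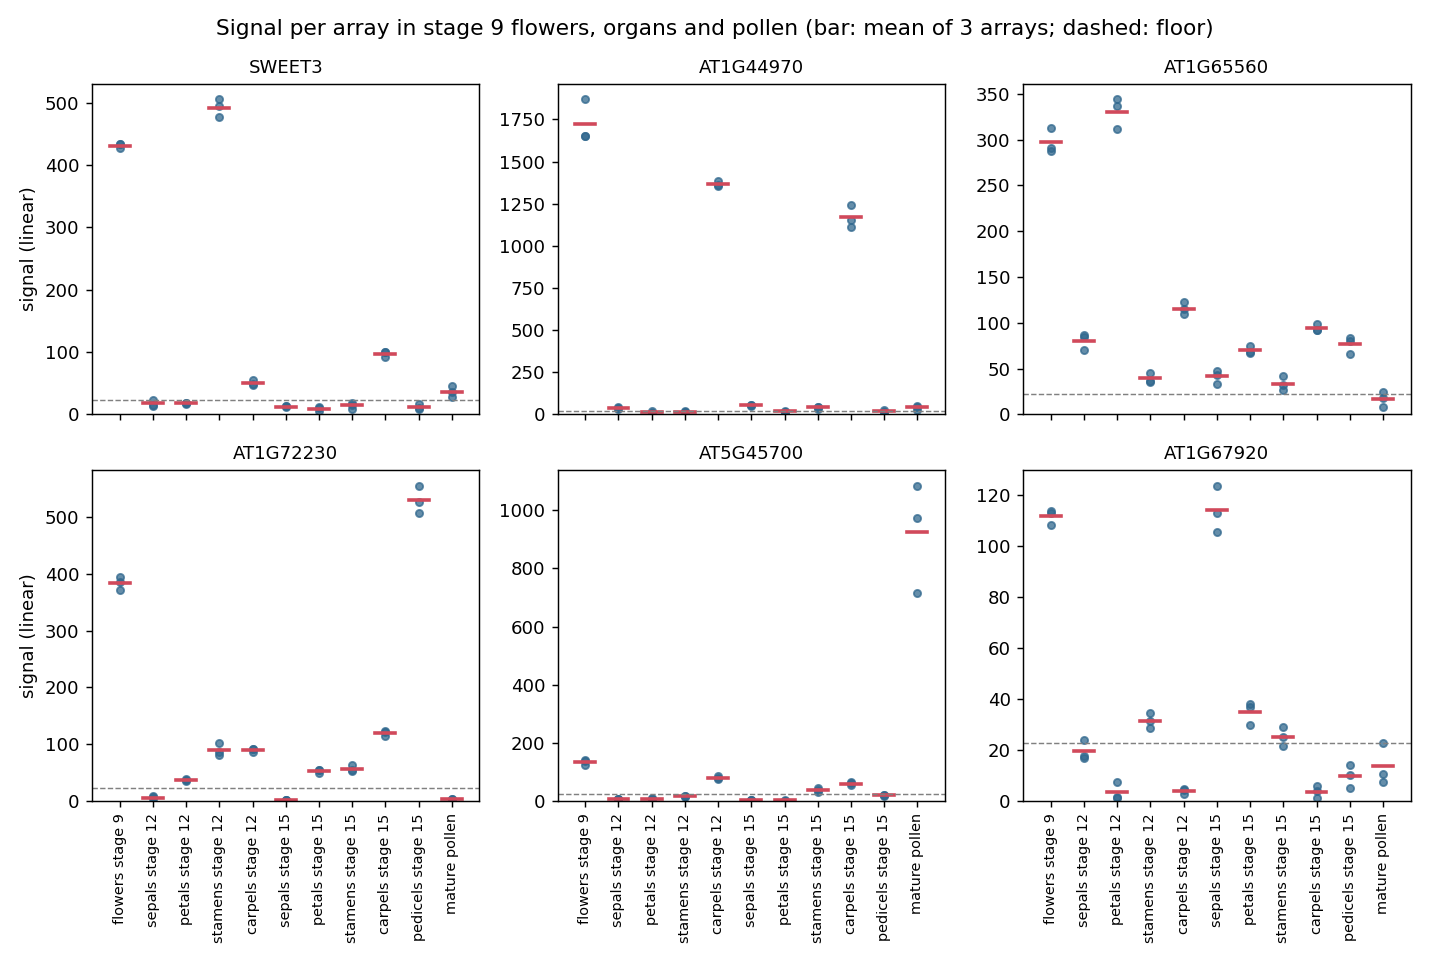
Points give the linear signal on each array for SWEET3, AT1G44970, AT1G65560, AT1G72230, AT5G45700 and AT1G67920 in stage 9 flowers, dissected organs and pollen, with red bars at the mean of 3 arrays and a dashed line at the floor of 22.61. Apart from stage 9 flowers, each gene has 1 or 2 groups that stand clear of the others: stage 12 stamens for SWEET3, carpels for AT1G44970, stage 12 petals for AT1G65560, pedicels for AT1G72230, pollen for AT5G45700 and stage 15 sepals for AT1G67920.

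Between stage 12 and stage 15 the members of an organ changed in both directions. In stamens 2 members (2.78%) were called higher and 10 (13.9%) lower at stage 15, against 12% and 12% of all probe sets tested. The share called lower was thus near that of all tested. The median log2 change in stamens was −0.12 over the members and 0.01 over all tested. SWEET3 had the largest change of these: its stage 15 stamen arrays gave 18.8, 8.89 and 14.9, all below the floor, so the stage 12 level was at least 21.8-fold higher (limma adjusted p = 4.9e-34). Probe set 261815_at was at least 10.8-fold higher in stage 12 stamens, 260621_at at least 5.69-fold and AT1G74870 at least 3.71-fold. Against that direction AT4G34400, of the B3 family of DNA-binding proteins, gave 14.8, 14.0 and 13.9 in stage 12 stamens and 60.1, 52.9 and 63.7 at stage 15, at least 2.61-fold higher (limma adjusted p = 2.16e-12).

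In petals 4 members (5.56%) were called higher and 6 (8.33%) lower at stage 15, against 11.6% and 13.7% of all tested, so both shares were below those of all tested. AT4G28160 dropped out of petals: its 3 stage 15 arrays gave 2.35, 4.99 and 4.20, so stage 12 was at least 6.40-fold higher (limma adjusted p = 1.88e-23). AT1G65560 gave 74.5, 68.0 and 67.2 in stage 15 petals, a log2 change of −2.07 ± 0.12 (adjusted p = 4.39e-22). The cysteine protease gene AT2G21430 rose in petals from 40.8, 38.3 and 29.4 to 129, 132 and 143 (log2 change 1.63 ± 0.13, limma adjusted p = 3.51e-17). It also rose in carpels, from 71.6, 63.6 and 70.1 to 194, 170 and 176 (log2 change 1.26 ± 0.13, adjusted p = 2.89e-12). In sepals 1 member (1.39%) was called higher and 6 (8.33%) lower, against 6.94% and 9.9% of all tested. The share called lower was thus near that of all tested. The 1 called higher in sepals was AT1G67920, of no family stated here, which rose from 17.6, 23.8 and 16.8 to 124, 106 and 113 (log2 change 2.04 ± 0.16, limma adjusted p = 3.73e-17). In carpels 2 members (2.78%) were called higher and 3 (4.17%) lower, against 3.33% and 1.21%. AT1G04645, of the S-protein homologue family, had means of 10.1 in stage 12 and 85.4 in stage 15 carpels, at least 3.78-fold higher (limma adjusted p = 5.13e-16). AT1G75050, of the thaumatin-like family, went the other way, from 112, 108 and 117 to 12.7, 14.2 and 3.92, at least 4.98-fold lower at stage 15 (limma adjusted p = 3.84e-18).

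Mature pollen held 19 members above the floor on all arrays, and the share of all probe sets above it was not counted. The pollen values also depended on the scaling. Pollen arrays were scaled to the same trimmed mean as the rest, and where pollen was instead aligned on the 75th percentile or by quantiles, more members were called higher. Against stage 12 stamens, 9 members (12.5%) were called higher and 8 (11.1%) lower in pollen, against 14.3% and 30.1% of all tested. The median log2 difference was 0.17 over the members and −0.31 over all tested. Aligned on the 75th percentile the median over all tested moved to 0.36 and the members called to 23 higher and 8 lower, and by quantiles to 0.01 with 18 higher and 9 lower. Against stage 15 stamens 12 (16.7%) were called higher and 6 (8.33%) lower, against 18.8% and 30.5% of all tested. These became 29 and 4 on the 75th percentile and 24 and 6 by quantiles. The median over all tested also moved, from −0.19 to 0.48 and 0.1, and that over the members from 0.37 to 0.8 and 0.5. Shares of all probe sets called under these scalings were not counted, so the added calls cannot be told apart from this general shift.

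The strongest pollen members kept a wide margin. AT5G45700, of the haloacid dehalogenase-like hydrolase family, gave 717, 973 and 1085 in pollen and 13.6, 17.5 and 15.0 in stage 12 stamens, at least 40.9-fold higher in pollen (limma adjusted p = 5.11e-41). Its stage 9 flowers gave 138, 122 and 141, so pollen was far above the samples by which it was chosen. Probe set 265205_at gave 1074, 1316 and 1022 in pollen and 296, 287 and 267 in stage 12 stamens (log2 difference 1.96 ± 0.10, limma adjusted p = 1.47e-24). BGAL16 gave 248, 393 and 301 in pollen and 61.0, 67.9 and 60.6 in stage 12 stamens (log2 difference 2.11 ± 0.12, limma adjusted p = 1.86e-23). The transporter gene AT5G38820 gave 411, 306 and 343 in pollen, AT2G21430 gave 143, 271 and 302, and AT1G75050 gave 168, 94.4 and 85.1. SWEET3, high in stage 12 stamens, gave only 27.0, 35.4 and 46.2 in pollen, a log2 difference of −3.42 ± 0.14 (limma adjusted p = 9.03e-30). The 4 members with a higher mean in pollen than in stage 9 flowers were 265205_at, AT5G45700, AT5G38820 and BGAL16.

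The mutant flowers were compared with ap3-6 flowers, which lack petals and stamens and whose arrays took no part in choosing the members. The 6 comparisons share the ap3-6 arrays. In ap1-15, 41 members (56.9%) were called higher and 2 lower, against 4.64% and 1.37% of all probe sets tested. In ap2-6, 32 members (44.4%) were called higher and 0 lower, against 2.97% and 1.57%. In lfy-12, 29 members (40.3%) were called higher and 4 lower, against 1.6% and 2.29%. The median log2 difference of the 72 members was 1.21 in ap1-15, 0.88 in ap2-6 and 0.66 in lfy-12, and over all tested it was 0.01, 0 and 0. In clv3-7, 20 members (27.8%) were called higher and 2 lower, against 6.79% and 1.51%, with a median of 0.25 against −0.08. In ufo-1 and ag-12 few members were called: 3 higher and 1 lower in ufo-1, against 2.31% and 0.312%, and 1 higher and 5 lower in ag-12, against 1.46% and 1.65%.

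**Figure D4:**
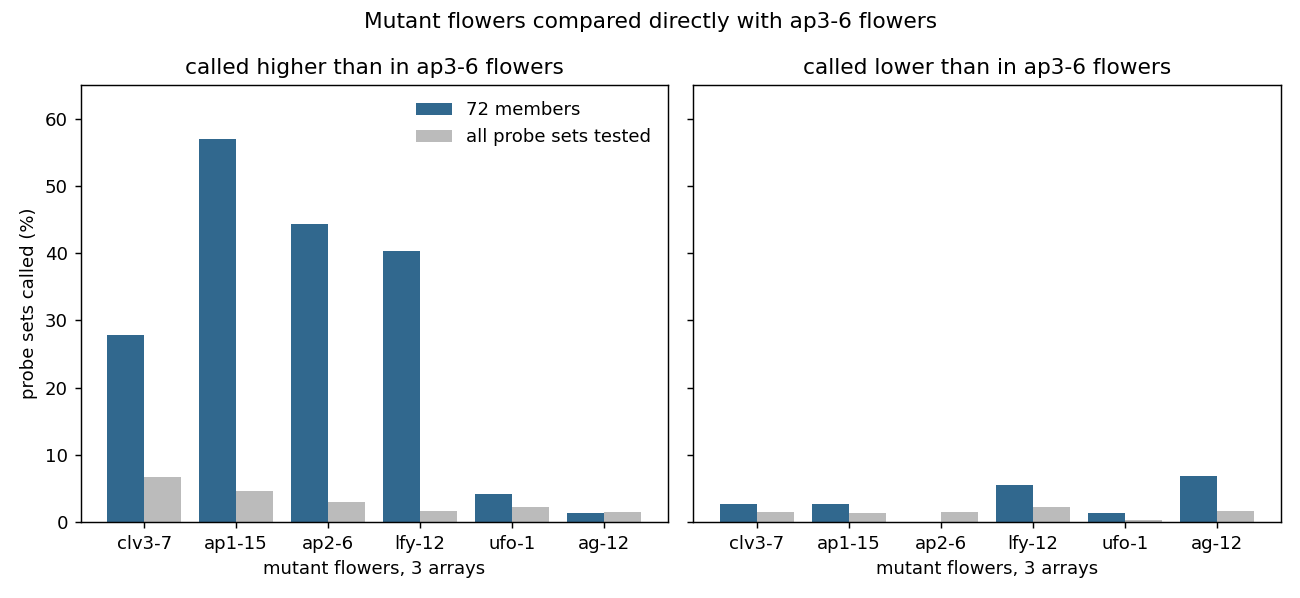
Bars give the percent of the 72 members (blue) and of all 17648 probe sets tested (grey) called higher, on the left, or lower, on the right, in each mutant's flowers than in ap3-6 flowers, with 3 arrays per group. The blue bars for higher calls reach 56.9% in ap1-15, 44.4% in ap2-6 and 40.3% in lfy-12, where the grey bars reach at most 4.64%.

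AT5G62080 showed the full order. Its signal was 489, 487 and 510 in ap1-15, 426, 435 and 433 in ap2-6, 168, 179 and 168 in lfy-12, 102, 103 and 103 in clv3-7 and 53.6, 58.0 and 53.4 in ufo-1. In ap3-6 it was 1.84, 0.65 and 10.0 and in ag-12 4.69, 6.52 and 4.52, so the first 5 genotypes did not overlap each other or the last 2. Against ap3-6 it was at least 21.9-fold higher in ap1-15 (limma adjusted p = 2.3e-35), at least 19.1-fold in ap2-6 (2.24e-34) and at least 7.60-fold in lfy-12 (1.59e-27). AT4G20420, the gene of the tapetum-specific family, gave 229, 200 and 261 in ap1-15, 267, 278 and 248 in ap2-6 and 173, 164 and 152 in lfy-12. Its ap1-15 and ap2-6 arrays overlapped, and ap3-6 gave only 14.7, 14.4 and 11.3. AT3G52130 gave 172, 137 and 157 in ap1-15, 150, 160 and 157 in ap2-6, 85.8, 76.9 and 96.9 in lfy-12 and at most 3.06 in ap3-6. For AT3G52130 ap2-6 was at least 6.88-fold above ap3-6 (limma adjusted p = 3.22e-25) and lfy-12 at least 3.83-fold (2.97e-20).

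UND, the aspartic protease gene, was above the floor in ap1-15 alone of the 7 mutants. It gave 37.4, 34.8 and 35.5 in ap1-15 and was called higher there than in ap3-6, where all arrays were below the floor (at least 1.59-fold, limma adjusted p = 3.68e-10). In ap2-6 it gave 18.8, 13.6 and 12.8 and in lfy-12 10.9, 8.69 and 16.1, all below the floor and not called. The bHLH gene AT1G06170 gave 56.5, 65.2 and 59.8 in ap1-15, 34.2, 32.8 and 39.9 in ap2-6, 30.9, 34.5 and 29.5 in clv3-7 and only 11.7, 10.8 and 7.00 in lfy-12. It was called higher than in ap3-6 in ap1-15 (at least 2.68-fold, limma adjusted p = 3.16e-21), ap2-6 (at least 1.58-fold, 8.15e-16) and clv3-7 (at least 1.40-fold, 6.61e-15), and was not called in lfy-12. AT3G23770, the glycosyl hydrolase gene, gave 233, 233 and 223 in ap1-15, 90.0, 84.0 and 94.1 in ap2-6, 45.9, 44.9 and 58.3 in lfy-12 and 40.4, 42.4 and 47.0 in clv3-7. Its lfy-12 and clv3-7 arrays overlapped, and those of ap1-15 and ap2-6 did not overlap any other of these.

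The 20 members below the floor in organs and pollen gave a like order as a group. Above the floor on all arrays were 16 of them in ap1-15, 13 in ap2-6, 9 in lfy-12 and 8 in clv3-7, and 1 each in ufo-1, ap3-6 and ag-12. Their median signal was 76.1 in ap1-15, 63.2 in ap2-6, 23.1 in lfy-12, 14.5 in clv3-7, 4.45 in ufo-1, 3.50 in ap3-6 and 3.05 in ag-12. The mean was higher in ap1-15 than in ap2-6 for 17 of the 20, higher in ap2-6 than in lfy-12 for 18 and higher in lfy-12 than in clv3-7 for 19. Neither these counts nor those above the floor were made over all probe sets, so they do not set the members apart. The 20 members were read on the same arrays and are not replicates of a genotype. Relative to stage 9 the medians stayed low, at 17.2% in ap1-15, 11.1% in ap2-6 and 6.25% in lfy-12. In no mutant did these members reach their stage 9 level. The nearest was 260355_at at 39.6% in lfy-12, which was already at 35.4% in wild-type stage 12 flowers. Among the others the highest was AT1G06170 at 37.2% in ap1-15.

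Probe set 260355_at was the 1 above the floor in ap3-6 and ag-12. It gave 75.8, 61.5 and 70.4 in ap3-6 and 90.1, 66.1 and 62.1 in ag-12, and its means in clv3-7, ap1-15, ap2-6 and lfy-12 lay between 67.0 and 106. In ufo-1 it gave 0.67, 0.56 and 0.99, so that ap3-6 was at least 3.06-fold higher (limma adjusted p = 1.31e-23). It was the 1 member called lower in ufo-1 than in ap3-6.

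In lfy-12, 4 members exceeded their stage 9 mean, and in ap2-6, ufo-1, ap3-6 and ag-12 1 member did, which was AT5G55450 in each. AT5G55450, the lipid transfer family gene of sepals and pedicels, gave 624, 631 and 665 in lfy-12, which is 306.8% of its stage 9 mean, and 283, 339 and 287 in ap3-6 (log2 difference 1.06 ± 0.10, limma adjusted p = 1.48e-12). It gave 108, 114 and 101 in ap1-15 and 23.2, 27.7 and 16.4 in clv3-7, both called lower than ap3-6. In ap1-15 it ran against the other lipid transfer family members, whose means were higher there than in ap3-6. In clv3-7 most of those stayed dim. AT3G52130 had means of 4.13 in clv3-7 and 2.22 in ap3-6, and AT3G07450 8.35 and 5.76. AT5G52160 was at 0.6% and 0.5% of its stage 9 mean. The mean of AT5G55450 was 104.5% of stage 9 in ap2-6, 136.6% in ufo-1, 145.2% in ap3-6 and 163.9% in ag-12, and 128.6% in long-day flowers. Probe set 256099_at gave 533, 533 and 551 in lfy-12 and 38.8, 38.4 and 49.9 in ap3-6 (log2 difference 3.36 ± 0.19, limma adjusted p = 6.64e-22). The B3 family gene AT4G34400 gave 373, 345 and 344 in lfy-12, 215, 238 and 230 in ap1-15, 187, 191 and 178 in ap2-6 and 75.3, 63.5 and 62.9 in ap3-6. Its lfy-12 level was above the 296, 294 and 286 of stage 9 flowers, and the difference from ap3-6 was 2.22 ± 0.15 on the log2 scale (limma adjusted p = 3.47e-18). AT3G53310, also of the B3 family, gave 225, 228 and 211 in lfy-12 and 96.0, 109 and 105 in ap3-6 (log2 difference 1.02 ± 0.15, limma adjusted p = 6.45e-08). The fourth member above its stage 9 level in lfy-12 was 258204_at, with a mean of 149, and AT5G55450, 256099_at and AT4G34400 were the other three. AT5G47600, of the small heat shock protein fold, had means of 309 in lfy-12 and 62.7 in ap3-6.

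**Figure D5:**
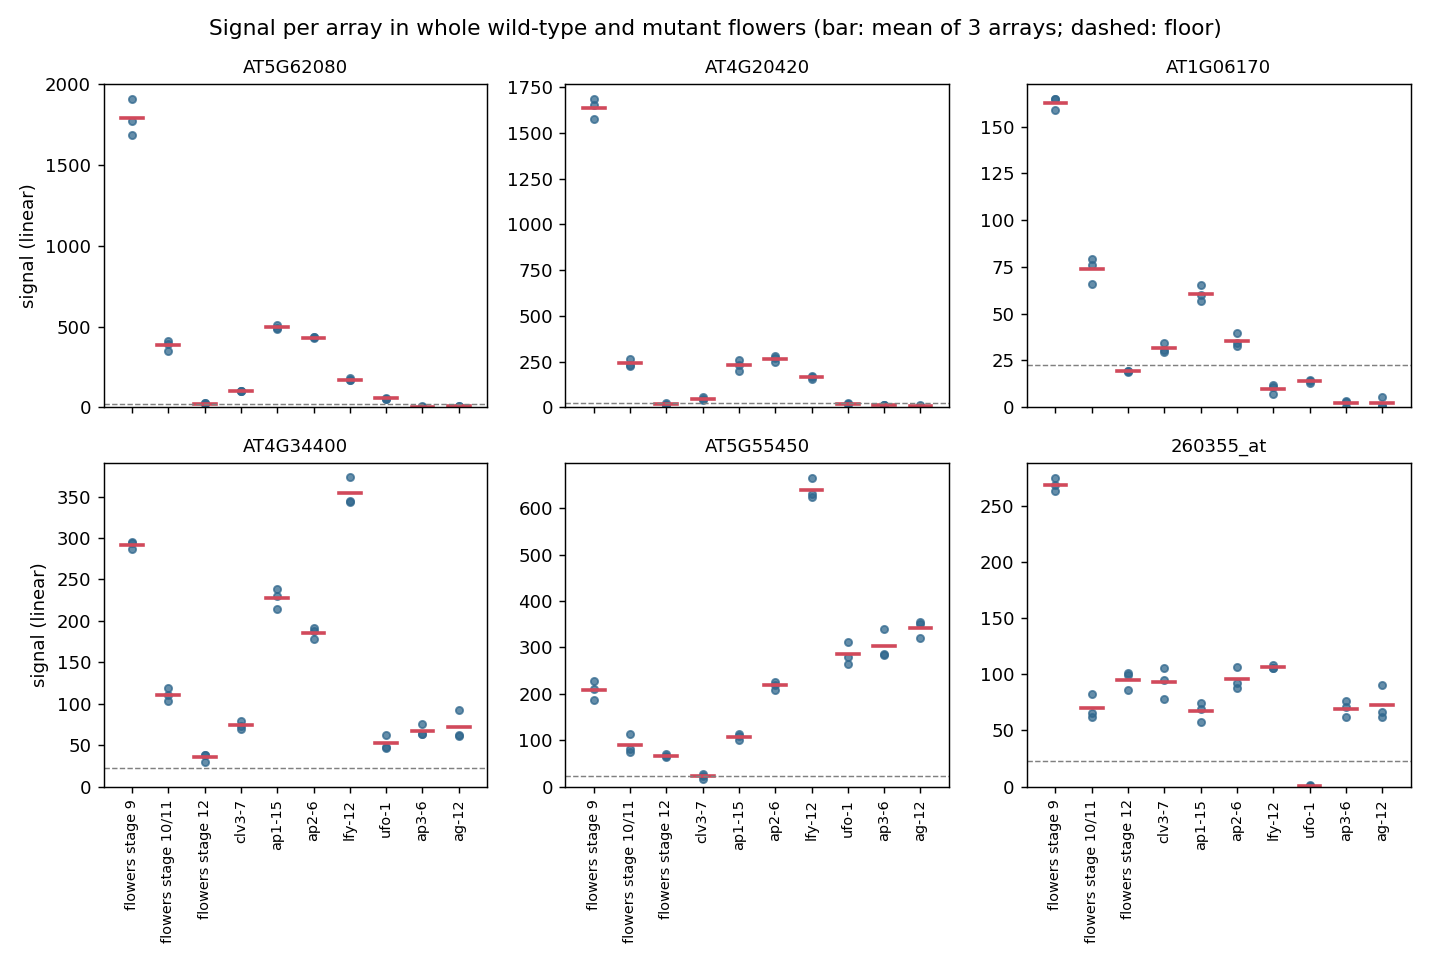
Points give the linear signal on each array of wild-type stage 9, 10/11 and 12 flowers and of the 7 mutants for AT5G62080, AT4G20420, AT1G06170, AT4G34400, AT5G55450 and 260355_at, with red bars at the mean of 3 arrays and a dashed line at the floor of 22.61. AT5G62080 steps down from ap1-15 to ap3-6, AT4G34400 and AT5G55450 are highest in lfy-12, and 260355_at is near 0 in ufo-1 alone among these groups.

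Of the 12 members enriched in stage 12 carpels, 4 were called lower and 0 higher in ag-12, which has no carpels, than in ap3-6, which has them, and 8 were not called. Of all probe sets tested, 1.65% were called lower and 1.46% higher. The mean of 255236_at, at 73.1 in ag-12 and 63.1 in ap3-6, and that of 258204_at, at 59.2 and 54.3, were not lower in ag-12. AT1G44970 gave 334, 368 and 349 in ap3-6 and 10.3, 10.4 and 11.1 in ag-12, so ap3-6 was at least 15.5-fold higher (limma adjusted p = 2.95e-34). AT5G02540 gave 171, 160 and 183 in ap3-6 and 27.9, 30.7 and 28.1 in ag-12 (log2 difference −2.18 ± 0.11, limma adjusted p = 3.86e-25). Probe set 246526_at gave 233, 246 and 276 in ap3-6 and 27.7, 23.2 and 30.5 in ag-12. The fourth of those called, 259290_at, had means of 125 and 54.2. Of the 10 members enriched in stage 12 stamens, 8 were called higher than in ap3-6 in clv3-7, 7 in ap1-15, 6 in ap2-6, 2 in ufo-1, 1 in lfy-12 and 0 in ag-12, and 0 were called lower in any of these. Over all tested the shares called higher were 6.79%, 4.64%, 2.97%, 2.31%, 1.6% and 1.46% in that order. Neither set of counts was made over all probe sets enriched in stamens or carpels. Since ap3-6 lacks stamens and ag-12 lacks carpels, these counts do not show a trait particular to the members. SWEET3 gave 226, 222 and 244 in clv3-7, 189, 187 and 179 in ap1-15 and 137, 120 and 143 in ap2-6, and stayed below the floor in ap3-6 and ag-12. In ufo-1 it gave 55.4, 61.3 and 57.0, at least 2.56-fold above ap3-6 (limma adjusted p = 5.08e-15). In clv3-7 it was at least 10.2-fold above ap3-6 (limma adjusted p = 2.4e-29). The 1 member called higher in ag-12 than in ap3-6 was AT4G16270, the other class III peroxidase gene, at 180, 200 and 179 against 58.1, 60.1 and 63.5 (log2 difference 1.46 ± 0.14, limma adjusted p = 2.24e-12). The 2 peroxidase genes thus moved in opposite directions between these genotypes.

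The same genotypes were also set against wild-type stage 12 flowers. Those arrays helped to choose the members for a low signal, so these comparisons lean towards higher calls and support nothing by themselves, and all 7 share the stage 12 arrays. Called higher and lower were 40 and 0 members in ap1-15 (2.06% and 3.51% of all tested), 32 and 1 in ap2-6 (1.46% and 4.97%), and 29 and 5 in lfy-12 (2.45% and 7.35%). They were 12 and 1 in clv3-7 (0.425% and 0.272%), 4 and 6 in ap3-6 (1.1% and 6.2%), 4 and 10 in ag-12 (1.05% and 6.02%), and 1 and 4 in ufo-1 (0.844% and 4.24%). The ap3-6 split turned with the scaling, to 6 higher and 2 lower by quantiles and 2 higher and 6 lower on the 75th percentile. The 1 member called higher in ufo-1 was AT5G55450, at 311, 280 and 264 against 69.5, 64.9 and 63.1 in stage 12 flowers (log2 difference 1.94 ± 0.10, limma adjusted p = 3.34e-23).

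Lists of other genes of the flower, chosen with earlier results of these data known, were read in the same comparisons. Of 19 early anther regulators 7 had a named probe set, and apart from the member AT1G06170 the other 6 had 4 called higher and 0 lower in ap1-15 than in ap3-6, 2 and 0 in ap2-6, and 2 and 0 in lfy-12. Of 20 pollen wall and tapetum genes 3 had a named probe set: SWEET8, a sugar exporter of the anther, A9, a classical tapetum transcript, and SHT, an acyltransferase of the tapetum. All 3 were called higher in ap1-15 and ap2-6 and 2 in lfy-12. From stage 9 to stage 12 of whole flowers 0 of these 3 were called higher and 2 lower, against 7.44% and 2.96% of all tested, and from stage 9 to 10/11 1 was called higher and 0 lower, against 2.01% and 1.14%. The 6 other anther regulators, which include AMS and ROXY2, had 5 called lower from stage 9 to 12, against 2.96% of all tested. AMS met the values of the rule, with means of 746.69 at stage 9 and 39.94 at stage 12. Its call therefore follows from the rule and adds nothing. Of the meiosis list 2 of 7 measured genes passed the filter on dim probe sets, and 0 were called in ap1-15, ap2-6 or lfy-12 against ap3-6.

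Markers of other cells moved with these comparisons as well. Of 6 mature pollen genes measured, 4 were called higher in ap1-15 than in ap3-6, 3 in ap2-6 and 0 in lfy-12. Their summed signal ran from 322 to 366 over the ap1-15 arrays, 199 to 234 in ap2-6, 48.4 to 54.2 in lfy-12, 31.6 to 50.3 in ap3-6 and 740 to 818 in wild-type stage 12 flowers, and 0 of the 6 were above the floor on all ap3-6 arrays. The 4 carpel and ovule genes summed to 588 to 682 in ap3-6, 252 to 279 in ap1-15, 464 to 531 in ap2-6 and 109 to 124 in lfy-12. The 3 cell division genes summed to 667 to 686 in ap3-6, 629 to 678 in ap1-15, 830 to 903 in ap2-6, 810 to 815 in lfy-12 and 882 to 970 in stage 9 flowers, and 0 were called between these mutants and ap3-6. The part of these cells in the members' differences was not tested.

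Flowers of unstated stage from long-day plants held 69 of the 72 members above the floor on all arrays. Their median level was 42.5% of the stage 9 mean, above the 25.8% of stage 10/11, and 16 members exceeded 0.5 of their stage 9 mean. The rule held every member at stage 10/11 to at most 0.5 of its stage 9 mean and did not use the long-day arrays. The comparison with stage 10/11 therefore leans towards higher long-day levels and supports nothing by itself. AT5G62080 gave 934, 861 and 893 there, AT4G20420 gave 762, 748 and 775, and AT3G52130 gave 600, 599 and 599. All 3 lay between their stage 9 and stage 10/11 arrays without overlap. Photoperiod, temperature and the unstated stage differ together from the other wild-type flowers and cannot be told apart, and no test was made of this group. Its share of all probe sets above the floor was not counted.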

How the data were processed

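Per the labels and the submitters' processing notes, RNA was hybridised to ATH1 arrays and the authors deposited 1 linear intensity per probe set and array, made with MAS5 and scaled to a common trimmed mean. Control probe sets were left out, as were AMS and ROXY2. No genome build is named and no sequence table was used, so no positions or sequences are printed. Gene names came from the platform annotation, updated through RefSeq, and family names in the text are general knowledge.

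Linear models were fitted with limma 3.58.1 in R 4.3.3 on log2(signal + 11.3), the pseudocount being 0.5 of the floor, with 1 mean for each of 22 groups over all 66 arrays and a mean-variance trend. Of 22746 probe sets, 5098 that were above the floor on all 3 arrays of no group were left out. P-values were adjusted by the Benjamini-Hochberg method over all 17648 tested. The number of arrays limits the precision, and 44 residual degrees of freedom were available. "At least" folds divide the brighter mean by the floor where the dimmer group was below it. The fit was tested on simulated data in which 14705 probe sets were tested, not the 17648 of the real fit. That run is no check of the member calls themselves. Replicate letters were not used as a block, since deviations of arrays that share a letter correlated at −0.001 on average (−0.14 to 0.155 over 672 pairs).

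The members and gene lists were chosen with earlier results of these data known, and gene families were grouped after values were seen. Named members are the 12 highest at stage 9, members of a list, the largest called changes in each comparison, the highest in pollen and organs, and those beside the rule's limits; UND, the members below the floor in all organs and further organ-enriched members were also named after their values were seen. Alternatives were other pseudocounts, scalings and filters, fits on the compared arrays, a replicate block, other forms of the rule and leaving out each array.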

Additional observations from a re-analysis of the deposited data

Results flagged for a closer look

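Between stage 12 and stage 15 some members changed in 1 organ and differently in another, given here as the difference of the 2 log2 changes. The members were picked for a large called change in 1 of the organs, so these differences largely restate that change, and they are printed as values with no test. AT1G65560, at −1.90 for petals minus stamens, AT2G21430, at 1.21 for petals minus stamens, and 265119_at, at −1.33 for sepals minus petals, were above the floor in both organs at both stages.

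The other members had arrays at or below the floor in at least 1 of the 4 groups, so their sizes depend on the pseudocount and are not measured exactly. For stamens minus carpels, SWEET3 gave −5.14, with stage 15 stamens below the floor, and AT4G34400 gave 2.23. Probe set 261815_at gave 3.76 for petals minus stamens, and it was below the floor in petals at both stages and in stage 15 stamens. AT4G28160 gave −3.00 and 246526_at 1.97 for petals minus carpels. AT1G67920 gave 2.26 for sepals minus stamens. For sepals minus carpels, 260914_at gave −2.43, AT1G04645 −2.21 and AT1G75050 2.48, and for sepals minus petals AT5G02540 gave −1.36 and 256297_at −1.75.

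The long-day flowers, which enter no test, had 69 members above the floor on all arrays, against 37 in wild-type stage 12 flowers. The stage 12 arrays helped to choose the members for a low signal, so this contrast leans towards that outcome. The shares of all probe sets above the floor in these groups were not counted.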

How the results depend on the processing

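None of the 116 named gene comparisons changed sign under the alternatives run, but the member median of ufo-1 against ap3-6 went from 0.06 to −0.02 by quantiles, and that of ap3-6 against stage 12 from 0 to 0.11 by quantiles and −0.02 on the 75th percentile. Counts of members called moved by over 1.5 times mainly with the pseudocount, since many members are dim in some groups. With no pseudocount the calls rose to 38 for pollen against stage 12 stamens and 45 against stage 15 stamens, to 22 from stage 12 to 15 in sepals, 26 in petals, 23 in stamens and 13 in carpels, to 10 for ag-12 and 11 for ufo-1 against ap3-6 and 13 for ufo-1 against stage 12, and to 5 enriched in stage 12 sepals, 6 in pedicels, 2 in stage 15 petals and 5 in stage 15 stamens. With a pseudocount equal to the floor they fell to 11 for clv3-7 against ap3-6, to 6 for clv3-7, 3 for ap3-6 and 3 for ufo-1 against stage 12, to 2 in sepals and 7 in stamens from stage 12 to 15, and to 0 enriched in stage 15 petals and 1 in stage 15 stamens. Pollen calls became 31 and 33 on the 75th percentile and 27 and 30 by quantiles. The split of calls in sepals from stage 12 to 15 became 2 higher and 4 lower by quantiles, and that of clv3-7 against ap3-6 17 and 4. Fitted on the compared arrays alone, ap3-6 against stage 12 had 6 calls. With replicate letters as a block, members enriched in stage 15 stamens went from 2 to 1, and no other count moved that far. The rule with at most 0.25 of the stage 9 mean found 28 members, and 48 had a stage 9 mean of at least 200; quantile scaling found 76 members, 71 of them shared.

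Leaving out 1 array at a time gave 3 to 6 calls for ufo-1 against stage 12, 3 without the third stage 12 array, and 1 to 2 members enriched in stage 15 stamens, 1 without 1 stage 15 petal array; the other counts stayed within 1.5 times, among them 42 to 44 for ap1-15, 31 to 35 for ap2-6 and 30 to 34 for lfy-12 against ap3-6. Of 116 named gene comparisons, 16 lost their call under some alternative. Signals near the floor limit the dim groups, where a level is only bounded.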
